A study of Caenorhabditis elegans with 2 samples.

Results

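The cytosolic ribosomal protein genes of Caenorhabditis elegans were taken as all protein-coding genes of the Ensembl WBcel235 annotation whose name starts with rpl- or rps-, which gave 78 of 19973 genes, 47 of the large (rpl-) and 31 of the small (rps-) subunit. For each gene the highest peak with its summit within 1 kb of any of its annotated transcript starts was taken from each of the authors' lists of binding sites of HLH-15, and genes without such a peak were kept. The sites come from chromatin immunoprecipitation with sequencing (ChIP-seq) in whole late embryos of strain OP566, hermaphrodites collected 3 hours after egg bleaching. The strain has the genotype unc-119(tm4063) III; wgIs566, and its transgene stably expresses the factor with GFP-FLAG fused to its C terminus. The series holds 1 group with 2 biological replicates, both of this strain and stage, so there was no contrast between conditions and no test of one. The description of the libraries names an antibody against GFP while the antibody label names hlh-15. Since whole embryos were used, strong binding in a few cells and weak binding in many cannot be told apart.

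Cytosolic ribosomes consist of a small subunit, which reads the mRNA, and a large subunit, which joins amino acids into protein. Their protein genes are expressed in nearly all growing cells and their products are needed in matched amounts. HLH-15 belongs to the bHLH (basic helix-loop-helix) factors, which bind E-boxes, the sequence CANNTG, as dimers. Many worm mRNAs, including those of ribosomal protein genes, receive a spliced leader by trans-splicing, and for such a gene the annotated start can mark the splice site instead of the first transcribed base. All positions are therefore given from the annotated start, with a minus sign for upstream.

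Most ribosomal protein genes had a peak within 1 kb of a start, on either side, and several of these peaks were among the stronger sites. In the pooled list of 17654 peaks, which also holds background, 61 of the 78 genes (78.2%) had a peak, against 35.7% of all protein-coding genes. In the strongest 10% of that list, 1765 peaks, 21 genes (26.9%) had one, against 6.35% of all genes. In the IDR list (irreproducible discovery rate), the authors' short list of 407 peaks, 7 genes (8.97%) had one, against 1.78%. The IDR threshold is meant to keep peaks whose ranks repeat between replicates. For all 7 genes the signal and rank in the IDR list equalled those in the pooled list. For these genes it therefore reads as a stricter cut of the pooled ranking, not as a separate measure of repeat. The separate lists showed the same order. In replicate 1 64 of the 78 genes (82.1%) had a peak, against 40.8% of all genes, and in replicate 2 64 (82.1%), against 52.4%. A peak in both replicate lists was held by 53 genes (67.9%), against 27.6%. Among the 407 strongest peaks of replicate 1 alone 8 ribosomal protein genes had a peak (10.3%, against 1.72% of all genes), and among those of replicate 2 alone also 8 (10.3%, against 1.79%). These 2 sets of 8 shared rpl-3, rpl-15, rps-19, rps-24 and rps-26. Replicate 1 added rpl-20, rpl-22 and rps-28, and replicate 2 added rpl-35, rps-1 and rps-6. All of these are descriptions of 1 pair of libraries, with no test.

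**Figure D1:**
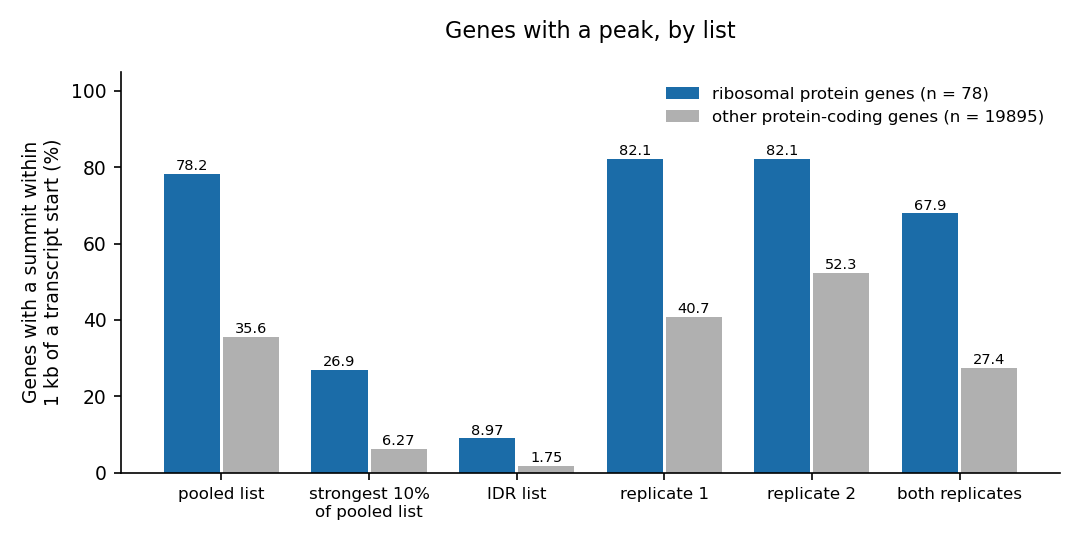
Share of genes with a summit within 1 kb of a transcript start, in percent, for the 78 ribosomal protein genes (blue) and the other 19895 protein-coding genes (grey), by peak list. Bars start at 0 and carry no error bar, since each is 1 count over all genes; the blue bar is the higher one in every list, at 78.2% against 35.6% in the pooled list and 8.97% against 1.75% in the IDR list.

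Ribosomal protein genes had close neighbours more often than other genes, and this moves with the count of peaks. Another protein-coding gene's start lay within 1 kb of the start for 57 of the 78 (73.1%), against 25.3% of other genes. Among genes with such a neighbour, 46 of 57 ribosomal protein genes (80.7%) had a pooled peak, against 42.7% of other genes. Among genes with no start of another gene within 1 kb, 15 of 21 (71.4%) had one, against 33.1%. For the strongest 10% of the pooled list these shares were 28.1% against 11.9% with a neighbour and 23.8% against 4.36% without. When each peak was given only to the gene with the nearest start, 38 ribosomal protein genes (48.7%) kept a pooled peak, against 30.9% of all genes, 12 kept one in the strongest 10% (15.4%, against 4.80%) and 4 kept one in the IDR list (5.13%, against 1.25%). A peak in both replicates was then kept by 28 (35.9%, against 22.6%). Of the 61 highest pooled summits, 34 lay nearest to the ribosomal protein gene itself, 27 lay nearer to another gene's start, and for 18 no other protein-coding start was within 1 kb. The part of neighbouring genes in the counts was not tested beyond these values.

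The 4 sequences below are the 201 bases around the pooled summit, 100 to each side, of those ribosomal protein genes with an IDR peak whose sequence is shown here, read from the NCBI WBcel235 sequence on the gene's own strand. They are shown as examples of sites that passed the IDR threshold in front of these genes, and were not picked by strength: 3 of the 7 such windows, all of them stronger than that of rpl-15, are not shown. The capitals mark every E-box (CANNTG) and every CCGCAC or CGCACA in either orientation. The windows are chrIV:385476-385676 (plus strand) for rps-24, chrIV:654847-655047 (minus) for rpl-15, chrIV:4749972-4750172 (minus) for rpl-20 and chrIII:7854622-7854822 (plus) for rpl-35, and none overlaps an annotated transcript.

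rps-24: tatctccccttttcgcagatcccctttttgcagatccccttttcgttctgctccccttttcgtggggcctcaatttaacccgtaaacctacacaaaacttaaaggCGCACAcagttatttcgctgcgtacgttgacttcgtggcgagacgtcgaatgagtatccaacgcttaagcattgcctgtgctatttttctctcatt

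rpl-15: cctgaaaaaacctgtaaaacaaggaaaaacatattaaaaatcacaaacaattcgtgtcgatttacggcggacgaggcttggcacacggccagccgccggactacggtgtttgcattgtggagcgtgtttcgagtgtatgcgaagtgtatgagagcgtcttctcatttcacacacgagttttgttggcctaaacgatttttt

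rpl-20: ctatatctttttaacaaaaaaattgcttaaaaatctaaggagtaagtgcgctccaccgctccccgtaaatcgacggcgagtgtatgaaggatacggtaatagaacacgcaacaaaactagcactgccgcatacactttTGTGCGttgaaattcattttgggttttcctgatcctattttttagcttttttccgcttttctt

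rpl-35: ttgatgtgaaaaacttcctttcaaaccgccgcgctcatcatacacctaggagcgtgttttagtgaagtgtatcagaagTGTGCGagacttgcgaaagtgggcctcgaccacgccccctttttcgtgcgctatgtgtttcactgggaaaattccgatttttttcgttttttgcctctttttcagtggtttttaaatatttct

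None of these 4 windows held an E-box. Over the windows of all 7 genes with an IDR peak 2 held one (28.6%), against 51.5% of 239 IDR windows of other genes, and one of the 2 was that of rps-19, with CAATTG at -2 bp from its summit. The windows of rps-24, rpl-20 and rpl-35 held 1 CGCACA each in either orientation, at 8, 41 and -19 bp from the summit, and that of rpl-15 held none of the marked words. A match here is a run of letters and not a measured binding site.

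The strongest peak at a ribosomal protein gene was that of rpl-3, whose large subunit protein reaches close to the peptidyl transferase centre. It lay on chromosome III, had its summit at -274 bp and had no other protein-coding start within 1 kb. Its signal, the authors' score for a peak, was 119.5 in the pooled list (rank 79 of 17654), 74.0 in replicate 1 (rank 80 of 21250) and 46.3 in replicate 2 (rank 86 of 30000). Signals of different lists are on different scales, so ranks are what can be set side by side, and for rpl-3 they fell within the strongest 0.447% of each list. The gene rps-24, of the small subunit, came next with its summit at -311 bp on chromosome IV (385338 to 385813), again with no other start in reach. Its signals were 105.5 in the pooled list (rank 101), 71.7 in replicate 1 (rank 88) and 37.2 in replicate 2 (rank 143). Among the 30 ribosomal protein genes highest in the pooled list, this pair had the smallest gaps between replicate ranks as percentages of each list. The gaps were 0.0625 percentage points for rps-24 and 0.0898 for rpl-3. Such gaps are bound to be small at the top of both lists, and the lists differ in length. By rank itself rpl-38, at 934 in replicate 1 and 967 in replicate 2, lay closer than rps-24.

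The other 5 genes with an IDR peak had pooled ranks between 171 and 287. For rps-19, a small subunit protein needed in humans for processing of 18S ribosomal RNA, the pooled, replicate 1 and replicate 2 signals were 86.2, 58.6 and 29.2. Its summit at -262 bp lay nearer to the start of hsr-9, at -183 bp from that gene. For rps-26, which lines the mRNA exit of the small subunit, the signals were 85.8, 48.1 and 39.0. Its summit at -412 bp lay -45 bp from the start of tmem-107 and 106 bp from a snoRNA gene. For rpl-15 the signals were 84.6, 46.4 and 38.1, with the summit at -371 bp and the start of K11H12.8 on its other side at -443 bp. For rpl-20 they were 81.1, 56.6 and 22.2, with the summit at -294 bp from rpl-20 and -168 bp from Y17G9B.5. For rpl-35, whose product sits by the exit tunnel of the large subunit, they were 68.9, 32.8 and 31.8, with the summit at -412 bp and no other start in reach. So 3 of these 7 summits, those of rps-19, rps-26 and rpl-20, lay nearer to another gene. All 7 genes had a peak in both replicates, and for 6 of them the replicates' summits lay within 100 bp of each other. In rps-26 they lay farther apart, at -497 bp in replicate 1 and -378 bp in replicate 2.

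**Figure D2:**
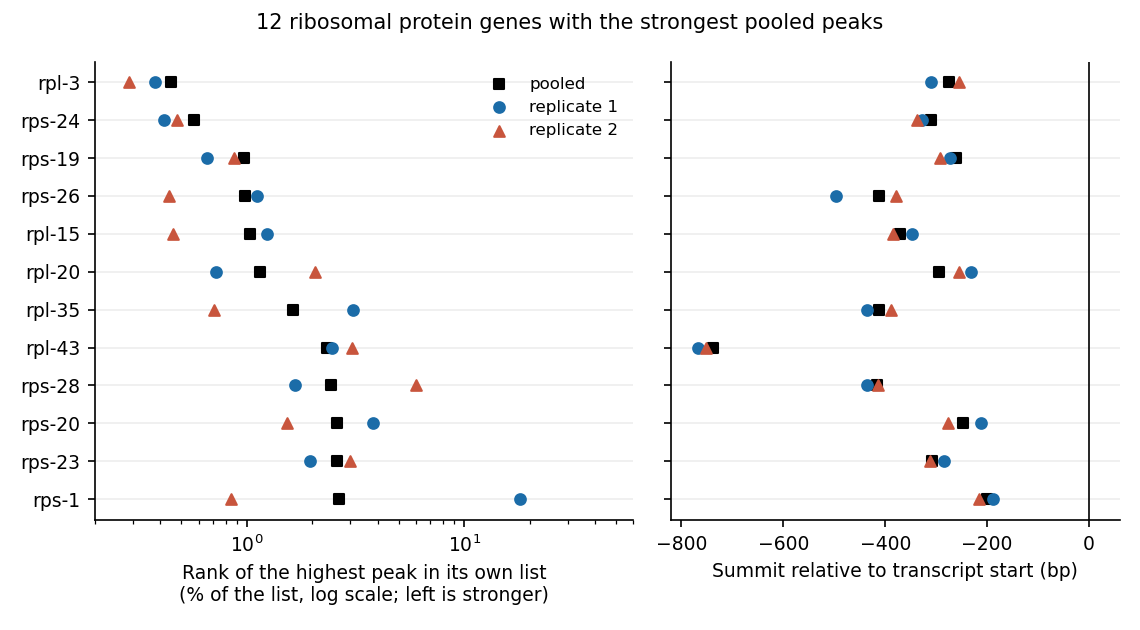
The 12 ribosomal protein genes with the strongest pooled peaks, from the strongest at the top. Left, the rank of each gene's highest peak in its own list as a percentage of the list, on a log scale; right, its summit relative to the annotated start in bp; squares are the pooled list, circles replicate 1 and triangles replicate 2. The replicates lie close for rpl-3 and rps-24 and far apart for rps-1, at 18.2% and 0.847%; all summits shown lie upstream, those of rpl-43 farthest, at -738 bp in the pooled list and -767 and -752 bp in replicates 1 and 2.

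Below the IDR threshold the replicate ranks lay far apart for some genes and close for others. The nearest gene outside the IDR list was rpl-43, of the large subunit, with a pooled signal of 58.7 (rank 412), just under the lowest signal of the IDR list, 58.9. Its ranks were 524 in replicate 1 and 919 in replicate 2, its summit lay at -738 bp, and it was nearer to Y48B6A.1, at -183 bp. The last gene inside was rpl-35 at 68.9. Next came rps-28 with a pooled signal of 57.7, rps-20 with 55.8, rps-23, which encodes a protein of the decoding centre, with 55.7, and rps-1 with 55.4. The summit of rps-28 lay at -417 bp, that of rps-20 at -247 bp, that of rps-23 at -308 bp and that of rps-1 at -201 bp. For rps-1 the replicates differed, with rank 3858 in replicate 1 and 254 in replicate 2. A wider gap was seen at rpl-22, which stood at 1.63% of the list in replicate 1 (signal 40.9) and at 54.8% in replicate 2 (signal 9.63). The gaps of rps-13, rpl-32 and rps-6 were 38.3, 34.4 and 30.8 percentage points. Those of rpl-43 and rps-23 were 0.597 and 1.04, less than the 1.35 of rpl-20 and 2.36 of rpl-35, which have IDR peaks. Genes near the top of both lists cannot have a wide gap. For rps-6, the protein phosphorylated by S6 kinase, the highest peaks were also different sites, at -992 bp in replicate 1 and -91 bp in replicate 2. Those of rpl-32, at -362 and 551 bp, and of rps-13, at 76 and -213 bp, were more than 100 bp apart as well. Those of rpl-22 lay closer, at -32 and -96 bp. The pooled peak of rpl-11.2, whose product binds 5S ribosomal RNA together with that of rpl-5, stood higher (5.43% of the list) than its peak in replicate 1 (53.4%) or replicate 2 (23.7%).

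Across the 53 genes with a peak in both replicates, Spearman's rho of the signal between replicates was 0.64 and Pearson's r of log2 signal 0.71, against 0.35 and 0.60 over 5458 other genes. These are correlations across genes of 1 pair of libraries of the same strain and stage, whose labels name the same control experiment, given as a description. The highest peak was the same site, with summits within 100 bp, in 20 of the 53 genes (37.7%), against 25.5% of other genes. For the rest, the correlations above pair different sites. Over the same-site genes alone Spearman's rho was 0.58, against 0.65 over other genes, so the order turned round. Where the highest pooled peak was in the strongest 10% of the list, the same site was held by 17 of 21 (81.0%). Among such other genes the share was 60.5%. Among the weaker pooled peaks of ribosomal protein genes it was 2 of 27 (7.41%), against 19.7%. For these genes the highest peaks of the 2 replicates thus mostly lay more than 100 bp apart. Only the highest peak of each replicate was compared. Whether a position held a lower peak in the other replicate was not tested. The pooled list was made from the same 2 replicates, and a site found in both can rank higher there. Splitting by pooled strength can therefore itself raise the share among strong peaks. When overlapping peaks were counted as the same site, 38 of the 53 genes had one, against 56.5% of other genes.

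**Figure D3:**
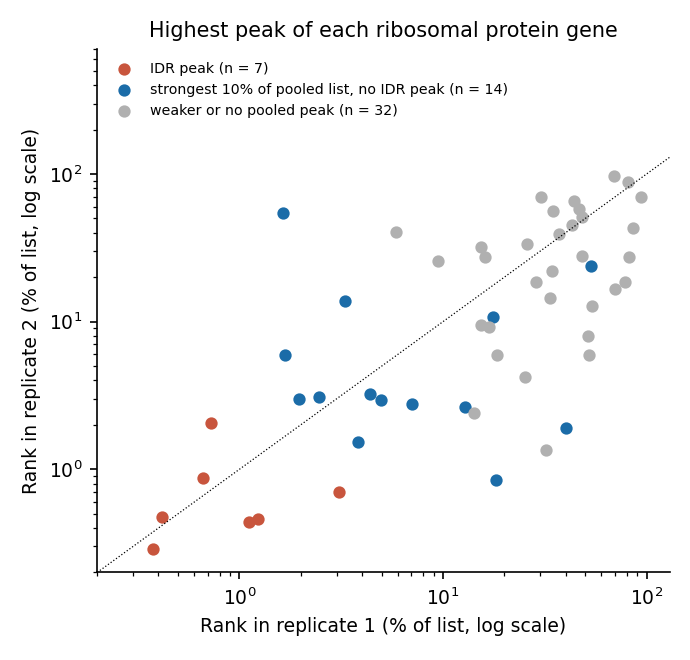
Rank of the highest peak of each of the 53 ribosomal protein genes with a peak in both replicates, replicate 1 on the x axis and replicate 2 on the y axis, each as a percentage of its list on a log scale. Colours mark 7 genes with an IDR peak and 14 others in the strongest 10% of the pooled list. The other 32 were weaker or had no pooled peak. The dotted line marks equal ranks. The 7 IDR genes sit at the lower left while the others scatter. Both the pooled and the IDR list were made from these 2 replicates, so this placing is partly set by the choice of groups.

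The summits lay in a band upstream of the annotated starts. The 61 highest pooled summits had a median position of -311 bp with quartiles of -426 and -201 bp, against a median of -129 bp and quartiles of -451 and 300 bp for the 7075 other genes with a pooled peak. They were upstream for 52 of 61 genes (85.2%), against 59.6% of other genes. With each peak given only to the nearest gene they were upstream for 30 of 38 genes, against 54.5% of other genes, with a median of -223 bp, against -52 bp. The medians were -304.5 bp in replicate 1 and -227 bp in replicate 2, against -106 and -76 bp for other genes in those lists. In the strongest 10% of the pooled list the median was -311 bp for 21 ribosomal protein genes and -218 bp for 1247 other genes. The 7 with an IDR peak ran from -412 to -262 bp with a median of -311 bp, against -234 bp for 349 other genes. Between -500 and -200 bp, a band chosen after the values were seen, lay 36 of the 61 summits (59.0%), against 21.1% of other genes. In replicate 1 this share was 51.6% against 19.8%, and in replicate 2 it was 39.1% against 18.1%. The 200 bp directly upstream of the start held 6 of the 61 summits (9.84%), against 16.3% of other genes. By annotation 45 of the 61 summits lay between protein-coding genes, 13 in coding exons, 2 in introns and 1 in an untranslated part of an exon. The 9 that did not lie upstream belonged to rpl-7, rpl-9, rpl-10, rpl-17, rpl-19, rpl-26, rpl-27, rps-2 and rps-30. The one of rpl-27, with the highest signal of these at 55.0, lay at 729 bp and was nearest to egl-30, at -49 bp from that gene.

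**Figure D4:**
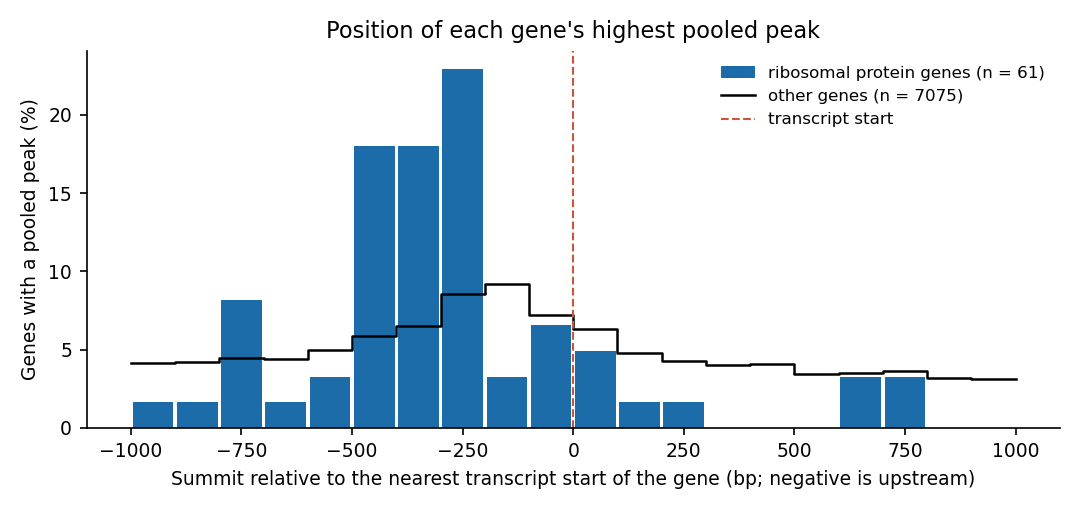
Position of each gene's highest pooled summit relative to its nearest annotated transcript start in bp (x axis, 100 bp bins, negative is upstream), as a percentage of the genes with a pooled peak (y axis). Bars are the 61 ribosomal protein genes and the line the 7075 other genes; the bars are tallest between -500 and -200 bp, which holds 59.0% of the ribosomal protein genes and 21.1% of the others.

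Both subunits were represented. Of the 47 large subunit genes 38 (80.9%) had a pooled peak, 10 (21.3%) in the strongest 10% and 4 (8.51%) in the IDR list. Of the 31 small subunit genes 23 (74.2%) had one, 11 (35.5%) in the strongest 10% and 3 (9.68%) in the IDR list. Over all protein-coding genes these shares were 35.7%, 6.35% and 1.78%. The median pooled rank stood at 27.6% of the list for the large and 14.9% for the small subunit. In replicate 1 the medians were 21.9% and 22.9%, so that the order of the subunits turned round, and in replicate 2 they were 23.7% and 13.9%. Over all 61 genes the median was 25.7%, against 38.8% for other genes with a pooled peak.

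In a pair of cases a large and a small subunit gene were transcribed away from each other and shared 1 peak. The peak between rpl-36 and rps-14 on chromosome III had its summit at -414 bp from rpl-36 and -249 bp from rps-14, with a pooled signal of 19.9. The peak of rps-30, whose human homologue encodes a fusion with a ubiquitin-like protein, and rpl-39 on chromosome V lay at 2 bp from the start of rps-30 and -501 bp from rpl-39, with a signal of 27.9. Both peaks had a counterpart in replicate 1, and none of these 4 genes had a peak in replicate 2. The 61 genes thus had 59 distinct highest pooled peaks.

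Among genes that share a number in their names, some differed in their peaks, and others were alike in pooled signal or in lacking a pooled peak. The gene rpl-11.2 had a pooled signal of 42.4 at -395 bp and rpl-11.1 one of 21.5 at -221 bp, and rpl-11.1 had no peak in replicate 2. The gene rpl-25.2 had a pooled signal of 21.3, and rpl-25.1 had a peak in replicate 1 only, with a signal of 18.8. The neighbours rpl-41.1 and rpl-41.2 had pooled signals of 28.5 and 27.8 at -789 and -261 bp, and in replicate 2 the highest peak of both was 1 peak between their starts. A letter suffix marks a different protein and not a copy: pooled signals were 19.9 for rpl-7 and 23.2 for rpl-7A, and 19.9 for rpl-36 and 26.7 for rpl-36.A. Neither rpl-24.1 nor rpl-24.2 had a pooled peak. Apart from rpl-11.2, at 5.43% of the pooled list, all pooled peaks of these genes stood between 25.7% and 87.2% of it.

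In all, 17 of the 78 genes had no pooled peak, and 14 of these had one in a replicate list. The exception in strength was rps-12, with ranks of 3004 in replicate 1 and 719 in replicate 2, though at -206 and 179 bp. Among the others without a pooled peak, no replicate peak stood higher than rank 5581. The 3 genes rpl-16, rpl-29 and rpl-42 had no peak in any list, which at an unknown read depth does not show that binding was absent. By chromosome the 78 genes fell as 23 on I, 10 on II, 18 on III, 17 on IV, 8 on V and 2 on X, and the 7 IDR peaks as 2 on I, 2 on III and 3 on IV. Introns and exons of 13 ribosomal protein genes hold 19 snoRNA genes. Of these 13 genes 10 had a pooled peak, where 61 of all 78 had one (78.2%), against 35.7% of all protein-coding genes. An IDR peak was held by 1, rpl-15, where 7 of the 78 had one (8.97%), against 1.78% of all genes. The summit of rpl-15 lay 586 bp from the nearest snoRNA gene. Only the weak peak of rpl-7 had its summit within 100 bp of a snoRNA gene, at 50 bp, and no highest summit was that close to a tRNA gene.

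Windows of 201 bp around the 59 distinct highest pooled summits held an E-box in 28 cases (47.5%), against 52.6% of 5981 windows of other genes. Windows of the same length centred 300 bp upstream of the most upstream start, whether or not a peak was there, held one in 47.4% of the ribosomal protein genes and 52.0% of other genes. The E-box CAAGTG was in 10 of the 59 windows (16.9%), against 9.00%, and in 6 of the 21 in the strongest 10% of the list (28.6%), against 10.8%. Of the IDR windows it was in 1 of 7 (14.3%), against 13.4%. Around all highest summits it was in 13.6% against 4.95% of windows of 101 bp. In windows of 401 bp the shares were nearer, at 18.6% against 16.5%. In the windows centred 300 bp upstream CAAGTG was in 15.4% of ribosomal protein genes and 8.05% of other genes. CACATG was in 8.47% against 6.40% at the summits, CACGTG in 6.78% against 3.39%, CAGCTG in 3.39% against 3.98% and CACCTG in 1.69% against 5.12%. CATATG was in 0 of the 59 windows, against 2.81%. CCGCAC or CGCACA, which overlap in CCGCACA and were known from an earlier look at these peaks, was in 14 of 59 windows (23.7%), against 9.61%. It was in 4 of the 7 IDR windows (57.1%), against 28.0% of 239 IDR windows of other genes, and in 17.9% against 6.55% of the windows centred 300 bp upstream. The 4 IDR windows all held CGCACA, against 21.8% of those of other genes, while CCGCAC was in 0 of the 7, against 16.7%. Over the 59 windows CCGCAC was in 11.9% against 5.02% and CGCACA in 16.9% against 6.87%. In the strongest 10% of the list CCGCAC was in 9.52% against 13.1% and CGCACA in 23.8% against 14.9%. The word GGTTCGA of tRNA genes was in 1 window (1.69%, against 2.42%), TATAAA in 15.3% against 19.6%, and CTGCGTC in 3.39% against 3.18%. The median GC content was 39.8% at the ribosomal protein summits and 37.3% at those of other genes. In the strongest 10% of the list it was 39.8% against 40.8%, and in the IDR windows 45.3% against 42.3%. Around all highest summits it was 42.6% against 37.6% in windows of 101 bp and 35.7% against 36.4% in windows of 401 bp. The order thus changed with the windows taken.

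Genes that work with the ribosome were counted in the same way. Of 6 ribosomal proteins and associated factors outside the name rule, the stalk genes rla-0, rla-1 and rla-2, the ubiquitin fusions ubl-1 and ubq-2, and rack-1, only ubq-2 and ubl-1 had a pooled peak (33.3%, against 35.7% of all genes; signals 28.1 and 25.5), and none was in the strongest 10%. Of 70 mitochondrial ribosomal protein genes 35 had a pooled peak, 7 one in the strongest 10% and 4 (5.71%) an IDR peak, led by mrpl-23 with a signal of 88.7, which had no peak in replicate 2, and mrpl-12 with 62.3. Of 41 translation factor genes 28 (68.3%) had a pooled peak, 10 (24.4%) one in the strongest 10% and 5 (12.2%) an IDR peak, led by eif-3.C with 110 and eif-3.D with 85.1, at -281 and -237 bp. Of 13 ribosome biogenesis genes 8 (61.5%) had a pooled peak, 3 (23.1%) one in the strongest 10% and 2 (15.4%) an IDR peak, fib-1 with 108 and rbd-1 with 63.0, at -100 and -135 bp. Over all protein-coding genes the shares were 35.7% in the pooled list, 6.35% in its strongest 10% and 1.78% in the IDR list. Differences between these gene lists and the ribosomal protein genes were not tested. Near the genes of the tagged factor and of HLH-2, the worm E protein, hlh-15 had a weak pooled peak (rank 10794) and hlh-2 had none in any list. The highest peak of hlh-15 had rank 2364 in replicate 1, at 827 bp, and 8808 in replicate 2, at -383 bp. The strain marker unc-119 had a pooled peak of rank 13552, at -825 bp. It had no peak in replicate 1 and one of rank 1434 in replicate 2, at 486 bp.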

How the data were processed

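Peaks were taken from the 4 lists that the authors deposited for assembly ce11: 1 for each of the 2 replicates, 1 for the pooled replicates and the IDR list. Per the notes deposited with them, the replicate and pooled lists hold peaks and background and come from aligned reads of the immunoprecipitates and of a control, and the IDR list comes from those 3. No source used here names the aligner or the peak caller. The signal of each peak is the deposited score of the authors; its scale is not stated, so it was ranked within 1 list only. Lists in ce10 coordinates were not used. Read numbers are not given, so depth is unknown and no interval is printed. Where nothing says more than biological replicate, the spread between the 2 libraries may be partly technical.

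Summits (1-based) were set against 29784 transcript starts of 19973 protein-coding genes of Ensembl release 115 on chromosomes I to V and X with Python 3.11.15 and NumPy 2.4.6. The NCBI WBcel235 sequence was checked against the annotation: the coding sequences of all 78 genes start with ATG. The commonest peak width is 476 bp in the pooled list. The assignment of peaks was tested on simulated peaks. Each gene takes its highest peak within 1 kb, and 1 peak may serve several genes. Genes named were those with an IDR peak, the 12 with the highest pooled signal, the extremes of the gap between replicate ranks among the 30 highest, genes that share a number, and those without a peak, with up to 2 members of each other list; rps-12, rps-30, rpl-39, rpl-27 and the other genes not upstream were named after their values were seen. Motifs were searched on both strands. The sequences of the 3 other IDR windows are not reported here. The genes, the lists and the motifs were chosen with earlier results of these data known, and no test was run. Alternatives covered the distance, the choice of start, assignment to the nearest gene, peaks at tRNA and snoRNA genes, the summit, the thresholds and the use of 1 replicate.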

Additional observations from a re-analysis of the deposited data

How the results depend on the processing

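Of 64 alternatives over 10 results, 51 stayed within 1.5 times the count or within the spread between the replicates' values (SD 2.35 percentage points of rank and 54.8 bp of position). Giving each peak to the nearest gene alone moved 7 of the results: 38 genes then had a pooled peak, 4 an IDR peak, 28 a peak in both replicates and 12 one in the strongest 10%, 30 had their summit upstream, the median rank was 28.2% and the median position -223 bp. With the list of a single replicate in place of the pooled one the median rank was 18.6% to 21.9%, the median position -304.5 to -227 bp, the genes with a peak 64 in each, those in the strongest 10% 18 to 25 and those upstream 46 to 54; the 407 strongest peaks of 1 replicate held 8 genes in each. Counting overlapping peaks as the same site gave 38 genes. In windows of 50 bp to each side, 15 held an E-box and 9 held CCGCAC or CGCACA, the shorter window itself holding fewer words. The cause of the other shifts was not tested. With 2 libraries, unknown depth and a signal of unstated scale, weak peaks of a list that also holds background limit what the lower ranks can show.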

Other observations

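Windows at the summits share further letters that were noticed by reading them and then counted, so these counts are a description of a choice made on the same sequences. The word GCGTGTT, in either orientation, was in 4 of the 7 IDR windows of ribosomal protein genes (57.1%), against 7.53% of 239 IDR windows of other genes. These included rpl-15, rpl-20 and rpl-35, with its middle at 24, 5 and -46 bp from the summit. The word AAGTGTA, in either orientation, was again in 4 of 7, against 3.77%, and in the same windows of rpl-15, rpl-20 and rpl-35 at 44, 33 and -33 bp. In these 3 windows the words do not overlap each other. Since the words were read from IDR windows, their share there was raised by that choice. In the strongest 10% without the IDR list GCGTGTT was in 1 of 14 ribosomal protein windows (7.14%), that of rpl-27, against 3.49% of other windows, and AAGTGTA in 2 of 14 (14.3%), those of rps-1 and rpl-38, against 1.89%. In the rest of the pooled list GCGTGTT was in 2 of 38 (5.26%), against 1.64%, and AAGTGTA in 1 of 38 (2.63%), against 2.83%. In windows centred 300 bp upstream of the start, with or without a peak, they were in 3.85% and 7.69% of ribosomal protein genes, against 1.38% and 3.22% of other genes. Whether they are bound by any factor was not tested.

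By strength, 15 of the 78 ribosomal protein genes (19.2%) had their highest pooled peak in the top 5% of the list, against 3.51% of other genes, and 7 (8.97%) between 80% and 100% of it, against 5.48%.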
